A study of Mus musculus with 30 samples.

Results

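Chromatin accessibility was examined in the windows outside promoters that lie nearest to zinc finger protein genes of the mouse. A window is a genomic interval called accessible in at least some of the libraries of a count table, and a member window contained no transcription start site (TSS) of a protein-coding gene and had, within 50 kb, a nearest protein-coding TSS belonging to an autosomal gene whose symbol is Zfp followed by a number. The rule used GRCm38 coordinates and the GENCODE vM21 annotation and no measured value. It found 2427 of 305931 windows in the 24 h table, at 293 genes, and 2676 of 369846 windows in the 4 h table, at 309 genes. A gene had a median of 4 member windows at 24 h and 5 at 4 h, with up to 88 at Zfp423 at 24 h and up to 70 each at Zfp827 and Zfp608 at 4 h. The nearest TSS only names a window here; the symbol rule also takes in genes whose products are not of the C2H2 type, and a window named for a Zfp gene can hold other features.

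Mesenchymal stem cells (MSCs) from the bone marrow of male C57BL/6J mice were compared with and without CK666, an inhibitor of the Arp2/3 complex that nucleates branched actin, after 4 h and 24 h, and with and without cytochalasin D (CytoD), an inhibitor of actin polymerization, after 24 h. NIH3T3 cells, an established line of mouse embryonic fibroblasts, were compared with and without CK666 after 4 h. Each of these 7 groups had 3 libraries made by Omni-ATAC, an assay in which a transposase cuts open chromatin, from 50000 cells. No group carries a genetic change by its labels, the MSCs are a mixed population grown from marrow and NIH3T3 is a single immortalised line. The authors state that all their work used a primary MSC line pooled from several mice, so MSC replicates do not stand for separate animals. The labels do not say whether replicates came from separate cultures, so p-values measure the spread between these libraries, which may be technical. In bulk libraries fewer cells with an open site and less opening per cell cannot be told apart.

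Zinc finger proteins of the C2H2 type bind DNA through arrays of short finger units. The largest family in mammals, the KRAB zinc finger proteins, carries an N-terminal KRAB box that recruits TRIM28 and, through it, histone H3 lysine 9 methylation and heterochromatin, and many of its members recognise transposable elements. Their genes arose by repeated tandem duplication and many lie in dense clusters, of which that on chromosome 13 is a well-known example in the mouse. Other Zfp genes stand alone and encode regulators such as Zfp423, a determinant of preadipocyte commitment, and Zfp217, a component of co-repressor complexes. Some member windows lie over genes for transfer RNA (tRNA). RNA polymerase III transcribes these from promoter elements inside the gene, of which the downstream one, the B box, is bound by the factor TFIIIC.

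The sequences that the results turn on are given first, read from GRCm38. The window centres are of the largest gain with each inhibitor at 24 h, among called windows whose mean reached 20 normalized counts, and of a window gained with CK666 at 24 h in MSCs and at 4 h in NIH3T3 cells, the last chosen after its values were seen. Each is 300 bases of the plus strand. The Zfp131 sequence, at chr13:119781797-119782096 in an intron, had the largest gain with CK666 and a GC content of 38.3%. The Zfp983 sequence, at chr17:21670735-21671034 between genes, had the largest gain with CytoD and a GC content of 38.7%, and 92.6% of its window is masked as repeats in the reference. The Zfp87 sequence, at chr13:67533339-67533638 between genes of the chromosome 13 cluster, is that window, and at 4 h in MSCs the overlapping window was not called (0.55 ± 0.40, adjusted p = 0.487). Capitals mark an AP-1 site (searched as TGANTCA, which any match reads on both strands) in the Zfp87 sequence.
Zfp131 window: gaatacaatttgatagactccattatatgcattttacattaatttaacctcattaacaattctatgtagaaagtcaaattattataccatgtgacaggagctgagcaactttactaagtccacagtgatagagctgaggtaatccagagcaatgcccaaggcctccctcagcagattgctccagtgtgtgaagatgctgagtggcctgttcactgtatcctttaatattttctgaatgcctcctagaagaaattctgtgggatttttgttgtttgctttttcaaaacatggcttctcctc
Zfp983 window: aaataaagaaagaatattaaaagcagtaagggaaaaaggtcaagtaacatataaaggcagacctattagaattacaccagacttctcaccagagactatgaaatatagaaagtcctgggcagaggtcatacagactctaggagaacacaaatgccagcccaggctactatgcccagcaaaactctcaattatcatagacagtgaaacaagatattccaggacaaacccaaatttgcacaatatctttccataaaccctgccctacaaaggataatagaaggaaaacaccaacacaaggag
Zfp87 window: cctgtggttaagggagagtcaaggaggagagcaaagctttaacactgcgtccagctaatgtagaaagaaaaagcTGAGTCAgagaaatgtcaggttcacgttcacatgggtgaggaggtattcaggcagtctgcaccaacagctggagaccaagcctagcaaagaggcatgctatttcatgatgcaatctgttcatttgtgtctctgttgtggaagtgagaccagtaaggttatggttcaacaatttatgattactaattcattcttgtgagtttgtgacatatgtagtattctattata

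The tRNA genes under the windows that lost accessibility are located here because that is where the losses near Zfp184 lay. In all 16 tRNA genes of RefSeq lay under windows of Zfp184 in either table, with 12 distinct sequences, and 11 of them held an exact match to a B box pattern, GTTCGANNC, on their own strand. Among them n-TSaga6 (tRNA-Ser) is at chr13:21927857-21927938 on the plus strand and n-TMcat10 (tRNA-Met) at chr13:21931169-21931240 on the minus strand. n-TDgtc12 (tRNA-Asp) is at chr13:21940319-21940390 on the minus strand, in a window that was not called with either inhibitor. n-TPcgg1 (tRNA-Pro) is at chr17:23540915-23540986 on the plus strand, in a window of Zfp213.

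The B box pattern stood in the central 500 bp of 1.43% of all windows of the 24 h table, of 2.72% of member windows and of 10 of the 19 member windows over a tRNA gene. In the 4 h table the share was 1.44% of all windows, 2.80% of member windows and 10 of 23 over a tRNA gene. Both strands were searched. An AP-1 site (TGANTCA) was in 27.0% of all windows and 25.9% of member windows at 24 h, and in 19 of the 36 member windows gained with CK666 at 24 h, where it was in 29.9% of all windows gained. Of the 26 lost with CK666, 8 held it, beside 43.4% of all windows lost. Of the 27 member windows gained with CytoD, 4 held it, and of the 28 lost 11, beside 13.6% of all windows gained with CytoD and 57.4% of all lost. At 4 h it was in 34.6% of all windows and 33.1% of member windows. There 4 of the 17 member windows gained in MSCs and 4 of the 21 lost held it, beside 25.9% and 35.0% of all gained and lost, and in NIH3T3 cells 19 of 45 and 21 of 40, beside 24.5% and 61.1%. A match describes the letters in the window only.

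The libraries held between 14071301 and 34979833 counts. Within a group, rank correlations between libraries were 0.827 to 0.954. Of 12 markers of marrow stromal and mesenchymal cells, 9 had a TSS window at 24 h and 11 at 4 h. The median level of the highest TSS window was 167 normalized counts in 24 h controls and 336 in 4 h controls of MSCs. In NIH3T3 controls it was 234. At 4 h Lepr had 14.7 and Thy1 0.668 in MSC controls, against 42.9 and 69.4 in NIH3T3 controls, and Eng had no TSS window. Cxcl12 had 616 and Nt5e 128 in MSC controls, against 172 and 13.8 in NIH3T3 controls. Pdgfrb and Pdgfra were also higher in MSC controls, Prrx1, Col1a1, Col1a2 and Vcam1 in NIH3T3 controls, and Cd44 was close in both. The 4 fibroblast markers all had a TSS window, with medians of 267 and 374 in the MSC controls and 557 in NIH3T3 controls. Of 4 endothelial markers 2 had a TSS window at 24 h and 4 at 4 h. Their medians were 5.87 and 48.3 in the MSC controls and 28.8 in NIH3T3 controls. Of 5 markers of hematopoietic cells 0 had a TSS window in either table; the 4 macrophage markers had one, with medians of 48.7 and 99.4 in the MSC controls and 65.7 in NIH3T3 controls. The part of other cells in the results below was not tested. The 9 siRNA libraries were not used, since their counts did not line up with the windows of the other libraries (rank correlations of -0.003 to 0.002).

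In the 24 h table member windows had a median length of 658 bp, a median GC content of 45.5% and a median distance of 9836 bp to the TSS. By annotation 165 touched a coding exon, 112 a UTR, 978 an intron and 1172 none of these. Their median level in control MSCs was 20.6 normalized counts (scaled by the trimmed mean of M values, TMM), close to the 20.7 of all windows, and far under the 274 of the windows that contain a Zfp TSS. Clusters were defined as runs of at least 4 Zfp genes with neighbours at most 250 kb apart. Of 358 Zfp genes, 168 lay in 23 clusters, 64 in 28 smaller groups of 2 or 3, and 126 alone; a stretch like a KRAB box was found in the proteins of 114 cluster genes, 20 genes of small groups and 23 single genes. At 24 h 541 member windows belonged to cluster genes, 319 to small groups and 1567 to single genes. Windows more than 50% masked as repeats made up 17.0% of those in clusters, 7.47% of those at single genes and 6.57% of the other non-promoter windows within 50 kb of a TSS, against 18.9% at olfactory receptor genes, another family of clustered genes.

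After 24 h of CK666 in MSCs, 36 of the 2387 member windows tested gained accessibility and 26 lost it, where a call by edgeR's quasi-likelihood test required a log2 change larger than 1 in size with an adjusted p below 0.01. These are 1.51% and 1.09% of the windows tested, beside 1.88% gained and 1.06% lost among all windows. Zfp windows as a class were thus close to the background in both directions, with a median log2 change of 0.01 against 0.02 over all windows. The 36 gains lay at 29 genes, with a median of 1.41, and the 26 losses at 18 genes, with a median of -1.47. None of the 383 windows that contain a Zfp TSS was called by edgeR, and DESeq2 called 0 gained and 0 lost. In edgeR 92 of them had an unadjusted p under 0.05. Here and below such counts stand without the share of all windows, so they are not set against a background.

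The windows named from here on show the largest changes among calls whose mean reached 20 normalized counts and whose groups were fully separate. Separate groups were not required for the interaction. First among the gains was a window in an intron of Zfp131, a BTB-domain zinc finger gene, at chr13:119781693-119782202. Its normalized counts were 74.0, 75.6 and 62.1 with CK666 and 10.3, 6.73 and 3.53 in the controls, a log2 change of 3.41 ± 0.37 (SE; adjusted p = 1.03e-11). With CytoD the same window had 8.80, 6.00 and 11.7, close to the controls. A window upstream of Zfp87 followed, at chr13:67533235-67533744, with 30.5, 43.8 and 56.3 against 2.57, 16.0 and 2.65 in the controls (2.51 ± 0.45); the middle control was higher than the others, but no control reached the lowest treated library. Downstream of Zfp217, at chr2:170094509-170095389, 202, 162 and 206 counts stood against 39.8, 33.7 and 45.0 (2.26 ± 0.18). An intronic window of Zfp827, a gene linked to telomere chromatin, at chr8:79041360-79041904, had 273, 247 and 245.5 against 64.1, 69.9 and 46.8 (2.08 ± 0.17). In both, every treated library was far above the highest control. The fifth gain was upstream of Zfp236, at chr18:82725044-82726303, with 338, 328 and 355 against 70.5, 96.0 and 79.4 (2.04 ± 0.14).

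Of the 5 largest losses at that level, 4 were windows over tRNA genes. Among these were the windows of n-TMcat10 and n-TSaga1 near Zfp184 and that of n-TPcgg1 near Zfp213. The exception lay in an intron of Zfp957, at chr14:79216299-79217012, with 86.0, 79.9 and 80.6 counts against 223, 279 and 312 in the controls (-1.73 ± 0.14, adjusted p = 1.54e-17). The CK666 libraries were tightly grouped there and far below the lowest control.

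**Figure D1:**
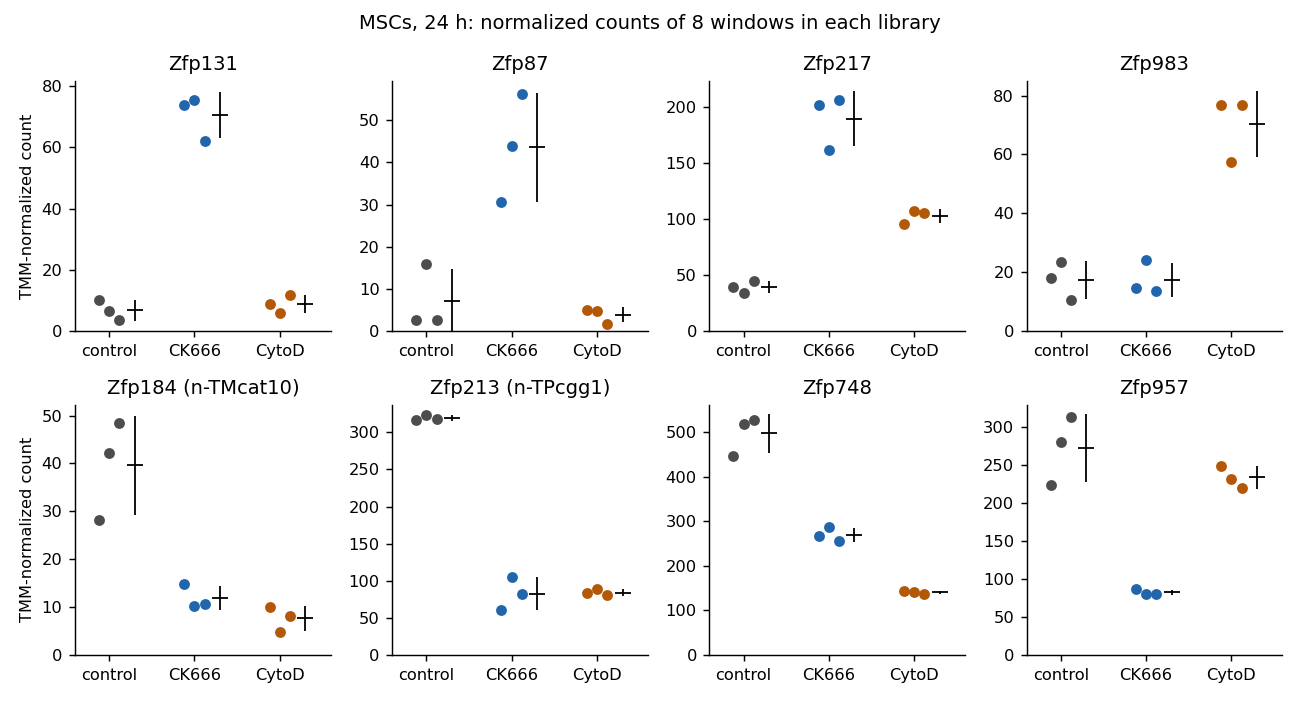
TMM-normalized counts of 8 named member windows in MSCs at 24 h; each point is 1 library, and the cross beside the points gives the mean and its SD over 3 libraries. Zfp131 and Zfp87 are high with CK666 alone, Zfp983 with CytoD alone and Zfp217 with both, while the tRNA windows at Zfp184 and Zfp213 are low with both inhibitors and Zfp957 is lowest with CK666.

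After 24 h of CytoD, 27 member windows gained accessibility and 28 lost it, 1.13% and 1.17% of the windows tested, beside 0.980% and 1.40% of all windows. Scaling by total counts turned this into 31 gained and 20 lost, with the median of all windows moving from 0.04 to 0.12, so the balance of gains and losses rests on the scaling. The gains lay at 20 genes and the losses at 22. No window with a Zfp TSS was called by edgeR, with 123 of 383 at an unadjusted p under 0.05 and DESeq2 called 0 gained and 0 lost. The largest gain at that level was downstream of Zfp983, in the repeat shown above, at chr17:21670557-21671214, with 76.7, 57.6 and 76.8 against 17.96, 23.6 and 10.6 (2.01 ± 0.31, adjusted p = 9.10e-07); CK666 libraries had 14.8, 24.1 and 13.6, close to the controls. Zfp317 followed, with a window at chr9:19662876-19663648 at 52.8, 57.6 and 73.1 against 23.1, 18.5 and 10.6 (1.85 ± 0.33). Zfp516, a regulator of brown fat genes, had a window upstream of its TSS at chr18:82894569-82895134 with 42.7, 45.6 and 38.8 against 8.98, 18.5 and 12.4 (1.62 ± 0.36). Near Zfp949 the log2 change was 1.56 ± 0.34 and in an intron of Zfp423 it was 1.51 ± 0.23.

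The largest CytoD losses were again at tRNA genes, n-TMcat10 and n-TPcgg1 among them. Next came a window upstream of Zfp748, a gene of the chromosome 13 cluster, at chr13:67572543-67573080. It had 143, 142 and 137 counts with CytoD against 446, 519 and 526 in the controls (-1.83 ± 0.11, adjusted p = 1.70e-22); with CK666 it had 266, 287 and 255, between the other groups in every library. A window in an intron of Zfp704, at chr3:9481888-9482464, had 7.54, 11.99 and 9.93 against 32.1, 26.1 and 35.3 (-1.65 ± 0.43, adjusted p = 0.00482).

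Set against each other, CK666 and CytoD differed at 36 windows higher with CK666 (1.51%, beside 2.14% of all windows) and 33 lower (1.38%, beside 1.14%); with total-count scaling these were 25 and 40. The Zfp87 window was highest in this contrast, with CytoD libraries at 5.03, 4.797 and 1.81 (3.51 ± 0.52), followed by that of Zfp131 (2.95 ± 0.36). The Zfp983 window was the lowest (-1.99 ± 0.31). A window upstream of Zfp281, a pluripotency regulator, at chr1:136600149-136600680, came next, with 46.2, 56.7 and 37.85 with CK666 against 176, 168 and 144.5 with CytoD (-1.78 ± 0.19). None of the 19 member windows over a tRNA gene differed between the inhibitors in edgeR, with 5 at an unadjusted p under 0.05 and DESeq2 called 0 gained and 0 lost and a median log2 difference of 0.03.

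The comparisons of the inhibitors with the control share the control libraries, so their calls are given side by side. Member windows gained with both numbered 6, at Zfp217, Zfp235, Zfp236, Zfp618, Zfp647 and Zfp949, which is 16.7% of the 36 CK666 gains and 22.2% of the 27 CytoD gains, where over all windows the 497 gained with both were 8.81% and 16.9%. Lost with both were 8, of which 6 lay over tRNA genes near Zfp184, 1 over n-TPcgg1 near Zfp213 and 1 upstream of Zfp697; that is 30.8% of the 26 CK666 losses and 28.6% of the 28 CytoD losses, where over all windows the 810 lost with both were 25.4% and 19.3%. The Zfp697 window, at chr3:98379169-98379709, had 186, 221 and 176 counts in the controls, 95.2, 101 and 81.5 with CK666 and 65.3, 88.7 and 80.4 with CytoD (-1.06 and -1.31). The Zfp618 window, in a coding exon at chr4:63079148-63079913, had 0, 0 and 2.65 in the controls, 11.1, 12.03 and 12.6 with CK666 and 12.6, 25.2 and 19.0 with CytoD; the control level is too low to give a fold.

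After 4 h of CK666 in MSCs, fewer windows had changed anywhere. Of 2336 member windows tested, 17 gained accessibility and 21 lost it, 0.728% and 0.899%, beside 0.590% and 0.427% of all windows. Without the windows over tRNA genes 10 losses remained of 2313 windows tested, or 0.432%, close to the 0.427% of all windows. Again 0 of 360 windows with a Zfp TSS were called by edgeR, with 87 at an unadjusted p under 0.05 and DESeq2 called 0 gained and 0 lost. The largest gain was in the UTR of Zfp365, at chr10:67885819-67886406, with 26.8, 26.5 and 38.2 against 6.40, 14.7 and 8.55 (1.61 ± 0.39, adjusted p = 0.00316). Zfp763, of a cluster on chromosome 17, had an intronic window with 61.5, 42.3 and 39.2 against 21.3, 14.7 and 12.8 (1.54 ± 0.31). The Zfp236 window was gained already at this time, with 101, 106 and 104 against 40.5, 36.7 and 38.5 (1.42 ± 0.21). At Zfp41 a pair of windows upstream of the TSS rose, by 1.27 ± 0.25 at 501 bp and by 1.26 ± 0.11 at 7087 bp from it; the latter went from 174, 162 and 207 to 479, 442 and 383 counts. The 4 largest losses were windows over tRNA genes near Zfp184, those of n-TSaga6 and n-TSaga1 among them, and the fifth, upstream of Zfp362 at chr4:128815985-128816554, had 14.9, 8.82 and 20.1 against 35.2, 37.8 and 52.4 (-1.52 ± 0.33).

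After 4 h of CK666 in NIH3T3 cells, 45 of 2351 member windows gained accessibility and 40 lost it, 1.91% and 1.70%, beside 1.87% and 1.67% of all windows; scaled by total counts the numbers were 62 and 29. Windows with a Zfp TSS were called once in each direction among 359. In 1 of the gains the treated and control libraries overlapped. An intronic window of Zfp827, at chr8:79072782-79073818, gained most, with 93.4, 83.9 and 105 against 19.9, 12.9 and 23.0 (2.34 ± 0.26, adjusted p = 1.14e-10). The Zfp87 window followed, with 90.5, 119 and 129 against 22.9, 25.9 and 30.1 (2.10 ± 0.23), and the Zfp236 window, with 81.7, 88.0 and 101 against 35.9, 15.4 and 16.8 (2.02 ± 0.26). Windows downstream of Zfp90 and upstream of Zfp235 rose by 1.96 ± 0.32 and 1.88 ± 0.32. The largest loss was downstream of Zfp825, at chr13:74456944-74457543, from 469, 324 and 464 to 78.8, 118 and 80.9 (-2.17 ± 0.16, adjusted p = 1.10e-16). Windows of n-TItat14 and n-TMcat10 near Zfp184 lost 1.97 ± 0.36 and 1.83 ± 0.37 on the log2 scale. A window upstream of Zfp931 changed by -1.84 ± 0.27, and one in an intron of Zfp229, at chr17:21749554-21750157, went from 298, 251 and 310.5 to 93.4, 75.7 and 78.0 (-1.81 ± 0.16).

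**Figure D2:**
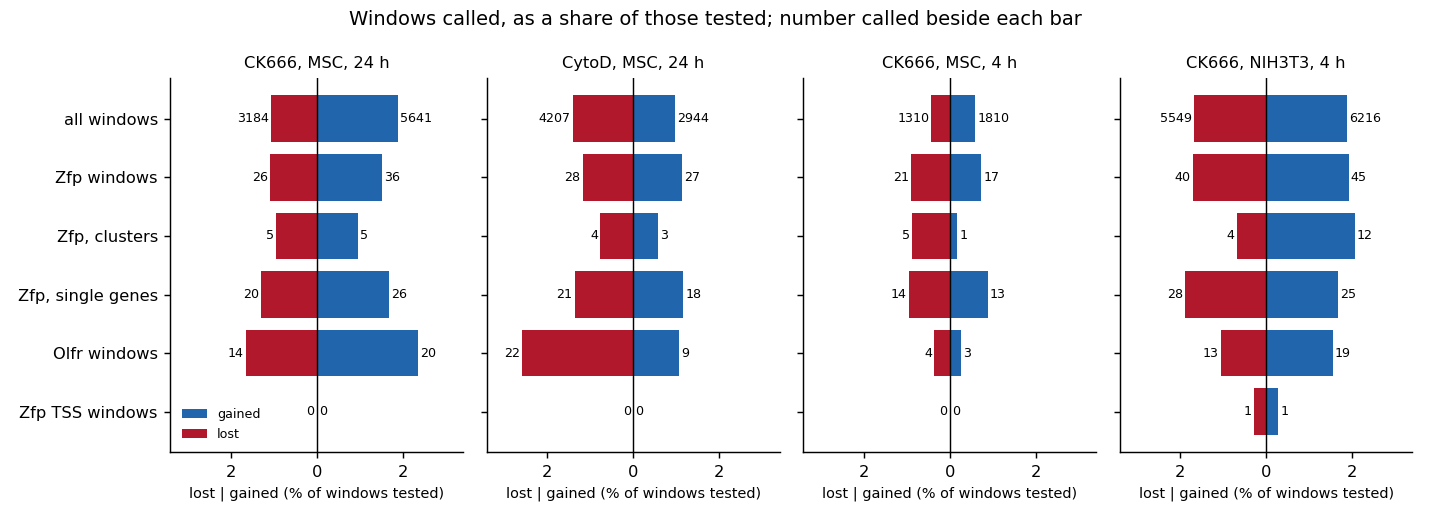
Windows called as a share of those tested, in percent, in each comparison with control; bars to the right are gains, bars to the left losses, and the number called stands beside each bar. Zfp windows stay near the share of all windows except for losses at 4 h in MSCs (0.899% against 0.427%), and windows with a Zfp TSS have 0 or 1 call in each direction.

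Among member windows, the losses over tRNA genes were concentrated near Zfp184, a KRAB zinc finger gene beside the large histone gene cluster of chromosome 13, where tRNA genes are also dense. Of 19 member windows over a tRNA gene at 24 h, 12 were near Zfp184, 5 near Zfp213, 1 near Zfp692 and 1 near Zfp956. With CK666 at 24 h, 10 of the 19 were lost and 0 gained, and with CytoD 7 were lost and 0 gained. At 4 h 11 of 23 were lost in MSCs and 6 of 23 in NIH3T3 cells, with 0 gained in both. The other windows over tRNA genes are not members, but some of them also lie within 1 Mb of Zfp184. Of these, 20 of 173 were lost with CK666 at 24 h (median -0.34) and 36 of 173 with CytoD (median -0.51). At 4 h 13 of 184 were lost in MSCs (median -0.21) and 7 of 183 in NIH3T3 cells (median -0.04), and 0 were gained in any of these comparisons. The overlap with tRNA genes was looked at after the largest losses had been seen.

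In the 12 Zfp184 windows over tRNA genes the change with CK666 at 24 h was below 0 in all 12, with a median log2 change of -1.56 and 9 losses called. The window of n-TSaga5 and n-TQctg10 had the most counts among the lost ones, 144, 146 and 140.3 in the controls, 48.1, 43.8 and 48.5 with CK666 and 45.2, 60.0 and 35.2 with CytoD (-1.62 ± 0.20 and -1.63 ± 0.20). That of n-TMcat2 and n-TKttt23 had 88.5, 102 and 72.4 in the controls, 30.5, 30.1 and 19.4 with CK666 and 23.9, 37.2 and 30.7 with CytoD. Both inhibitors left these windows at similar levels. In the window of n-TMcat10 the controls had 28.2, 42.1 and 48.5, CK666 libraries 14.8, 10.3 and 10.7 (-1.74 ± 0.39) and CytoD libraries 10.1, 4.797 and 8.13 (-2.37 ± 0.42). In these windows all treated libraries were below all controls.

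Other tRNA windows of Zfp184 were not called. The window of n-TDgtc12 and n-TSaga8, the closest to the Zfp184 TSS at 3928 bp and the most accessible of all, had 317, 316 and 317 counts in the controls, 214, 253 and 257 with CK666 (-0.39 ± 0.11) and 229.97, 242 and 235 with CytoD (-0.42 ± 0.11). That of n-TDgtc13 changed by -0.22 ± 0.21 with CK666 and -0.71 ± 0.23 with CytoD, and that of n-TItat14, the farthest at 47744 bp, by -0.82 ± 0.41 and -0.92 ± 0.43. Identical genes lay in windows with different values. The genes n-TSaga5, n-TSaga6 and n-TSaga8 are identical, and so are n-TDgtc11, n-TDgtc12 and n-TDgtc13, and with CK666 the n-TSaga6 window changed by -1.85 ± 0.46 and the n-TDgtc11 window by -1.51 ± 0.31, both called. Reads that fall within identical genes cannot be placed by sequence; the treatment of such reads by the authors is not known from the sources used here.

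At 4 h the loss at these sites was already present in MSCs, where 10 of 15 Zfp184 tRNA windows were called, all 15 changes were below 0 and the median was -1.24. The window of n-TSaga1 went from 172, 139 and 119.7 to 47.6, 50.3 and 49.7 (-1.54 ± 0.18). In NIH3T3 cells 6 of 15 were called, 14 changes were below 0 and the median was -1.16; n-TItat14 went from 66.8, 37.2 and 47.8 to 23.3, 4.09 and 13.2 there. The change with CK666 in NIH3T3 cells minus that in MSCs was called at 0 of the 23 tRNA windows in edgeR, with 7 at an unadjusted p under 0.05 and DESeq2 called 0 gained and 0 lost, and its median over the Zfp184 tRNA windows was 0.28.

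**Figure D3:**
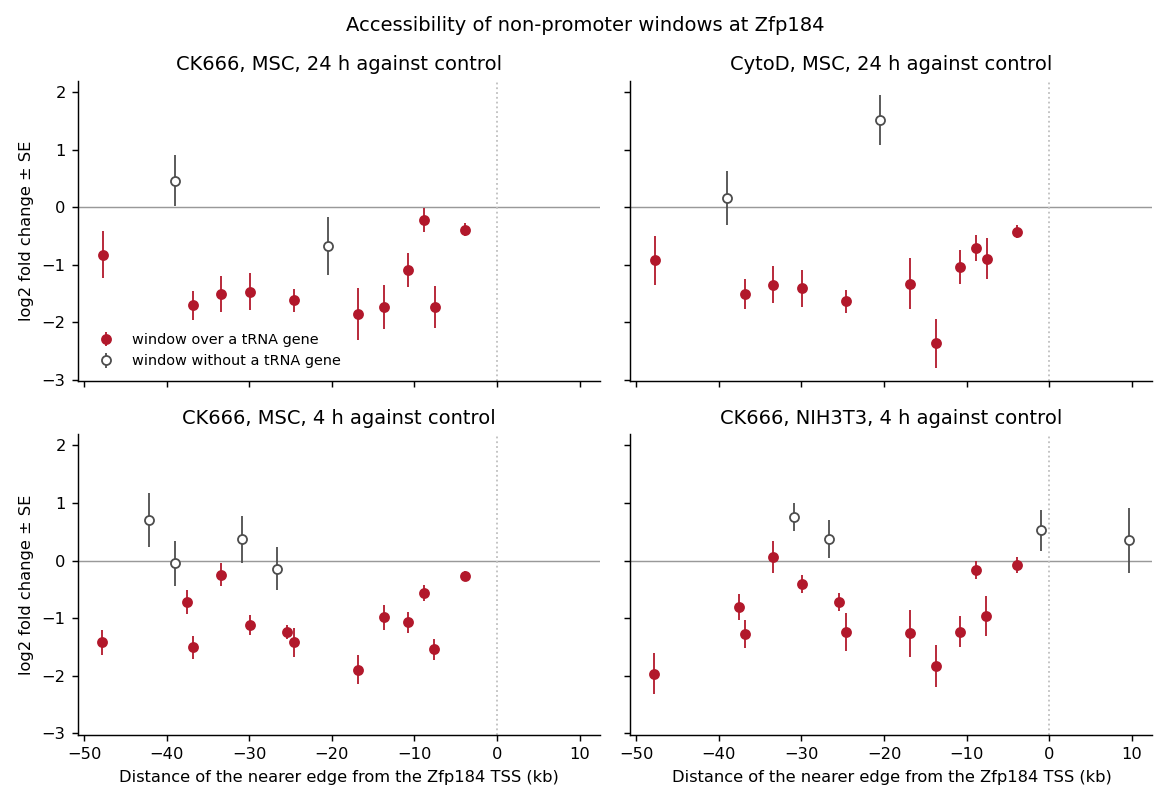
Log2 fold change against control (± SE of the fit, 3 libraries a group) of the member windows of Zfp184 except 1 at 24 h and 2 at 4 h that are not reported here, by the distance of its nearer edge from the Zfp184 TSS in kb. Filled points are windows over a tRNA gene and open points are windows without one; filled points lie below 0 except for 1 in NIH3T3 cells, and open points, 2 at 24 h and 4 in each cell type at 4 h, lie on both sides of 0 or above it and were not called.

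Windows of Zfp184 without a tRNA gene, of which 2 were tested at 24 h and 4 in each cell type at 4 h, in part different ones, were not called in any of the 4 comparisons with control. Over 1 Mb to each side of Zfp184, members or not, 17 of 45 windows over tRNA genes were lost with CK666 at 24 h (median -0.82, 44 below 0), against 1 of 69 windows with neither tRNA gene nor TSS (median 0.00) and 0 of 20 windows with a protein-coding TSS. With CytoD these numbers were 16 of 45, 0 of 69 (1 gained) and 0 of 20. At 4 h in MSCs 17 of 52 tRNA windows were lost and 1 of 87 of the others, and in NIH3T3 cells 10 of 50 and 2 of 85. Elsewhere in the genome 13 of 147 windows over tRNA genes were lost with CK666 at 24 h and 27 of 147 with CytoD.

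The tRNA window of Zfp213, at chr17:23540428-23541283 over n-TPcgg1, had the most counts of the member tRNA windows lost at 24 h. Its counts were 317, 324 and 318 in the controls, 60.1, 105 and 82.5 with CK666 (-1.95 ± 0.15, adjusted p = 5.49e-19) and 82.9, 88.7 and 80.4 with CytoD (-1.93 ± 0.15, adjusted p = 1.26e-17). At 4 h in MSCs the overlapping window went from 633, 626 and 598 to 254, 289 and 319.9 (-1.10 ± 0.09). All 5 tRNA windows of Zfp213 were below 0 with both inhibitors at 24 h, with medians of -0.64 and -0.68, and in NIH3T3 cells the 4 had a median of 0.09.

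At the level of genes, 44 of 293 Zfp genes had a called window with CK666 at 24 h (15.0%, beside 21.4% of other protein-coding genes with non-promoter windows) and 42 with CytoD (14.3%, beside 18.9%). At 4 h they were 25 of 302 in MSCs (8.28%, beside 9.44%) and 59 of 301 in NIH3T3 cells (19.6%, beside 27.4%). Zfp genes had a median of 4 windows tested and other genes 7, which a count of genes with a call depends on. With 3 or more calls in a comparison there were 3, 3, 2 and 6 Zfp genes (1.02%, 1.02%, 0.662% and 1.99%, beside 1.96%, 1.33%, 0.433% and 2.84% of other genes), and a gene with many windows can reach this number at the share of all windows, so their calls are given as a description. Zfp184 was in this group in all 4 comparisons with control. Zfp827 (70 windows) had 3 gains and 1 loss with CK666 at 24 h and none called with CytoD; of its intronic windows one rose by 2.08 and a neighbour went from 43.6, 37.0 and 69.7 to 30.5, 22.3 and 14.6 (-1.16 ± 0.31). Zfp217 (46 windows) had 2 gains with CK666 and 3 with CytoD in MSCs at 24 h, none called at 4 h in MSCs and 3 losses at other windows in NIH3T3 cells, the largest at chr2:170160052-170160654 from 144, 139 and 161 to 33.6, 58.3 and 42.3 (-1.70 ± 0.20). At Zfp949 3 upstream windows were gained with CytoD, by 1.21, 1.35 and 1.56, of which the last was also gained with CK666 (1.23).

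Zfp236 gained at 3 windows with CK666 at 24 h, at 2 with CytoD, and at 2 after 4 h in both cell types. The window 32161 bp upstream of its TSS was gained in MSCs at both times and in NIH3T3 cells, but with CytoD it was not called; there the gains were at 25517 bp (1.003 ± 0.24) and 28908 bp (1.31 ± 0.19). Zfp423 had 3 gains of 62 windows at 4 h in MSCs (1.01, 1.01 and 1.20), 2 gains each with CK666 and CytoD at 24 h of 87, and 2 losses of 51 in NIH3T3 cells (-1.28 and -1.18). Zfp608 had 2 gains with CK666 at 24 h and 1 at 4 h in MSCs, and 4 losses in NIH3T3 cells (-1.42 to -1.07). Zfp407 had 4 losses and 1 gain in NIH3T3 cells (-2.42 to -1.03, and 1.22) and none called with CK666 in MSCs at either time. Zfp598, a ubiquitin ligase of collided ribosomes, had 3 gains of 7 windows in NIH3T3 cells (1.86, 1.02 and 1.85). Each lay within 2321 bp of a transcript start of the gene, but not all of the same start. Whether these effects differ between cell types was tested window by window only in the interaction fit, which called 13 member windows higher and 24 lower in NIH3T3 cells (0.487% and 0.900%, beside 0.498% and 0.905% of all windows). It called 1 window lower at each of Zfp217, Zfp423 and Zfp608 and 2 at Zfp407.

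Between 24 h and 4 h, 1860 pairs of member windows overlapped and were tested in MSCs in both tables. They joined 1728 windows at 24 h to 1776 at 4 h, so a window can be counted in several pairs. A tRNA window of Zfp184 lost at 24 h (-1.62), for example, was paired with windows that changed by -1.42 and -1.24 at 4 h. Gained at both times were 3 pairs, at Zfp622, Zfp236 and Zfp423, of 15 gained at 4 h and 33 at 24 h. Lost at both were 10, of 18 lost at 4 h and 30 at 24 h; 9 of these lay over tRNA genes and the other was upstream of Zfp738, a gene of the chromosome 13 cluster. There the counts went from 52.6, 51.3 and 50.3 to 18.5, 24.9 and 19.4 at 24 h (-1.28 ± 0.30) and from 200.5, 170.0 and 147.5 to 69.4, 94.4 and 82.1 at 4 h (-1.07 ± 0.16). The times come from separate experiments with their own controls. Overlaps of calls stand here without the share over all windows, also those with NIH3T3 cells below, so they are not set against a background. Across windows, which are not independent replicates and share libraries, the log2 changes correlated at Pearson's r = 0.40 and Spearman's rho = 0.35. With CK666 in NIH3T3 cells the correlation with MSCs at 24 h was weaker (r = 0.20, rho = 0.15 over 1684 pairs), and 8 pairs were gained in both, at Zfp750, Zfp87, Zfp622, Zfp148, Zfp236, Zfp638, Zfp235 and Zfp180, of 32 gained in NIH3T3 cells and 27 at 24 h. The window in an intron of Zfp638, a cofactor of adipogenesis, went from 21.8, 39.6 and 27.4 to 98.9, 86.8 and 104 in MSCs and from 35.9, 45.3 and 33.6 to 105, 140.1 and 149.5 in NIH3T3 cells. Lost in both were 5 pairs, all over tRNA genes near Zfp184, and a window upstream of Zfp961 was called in opposite directions (-1.02 in MSCs at 24 h and 1.10 in NIH3T3 cells).

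**Figure D4:**
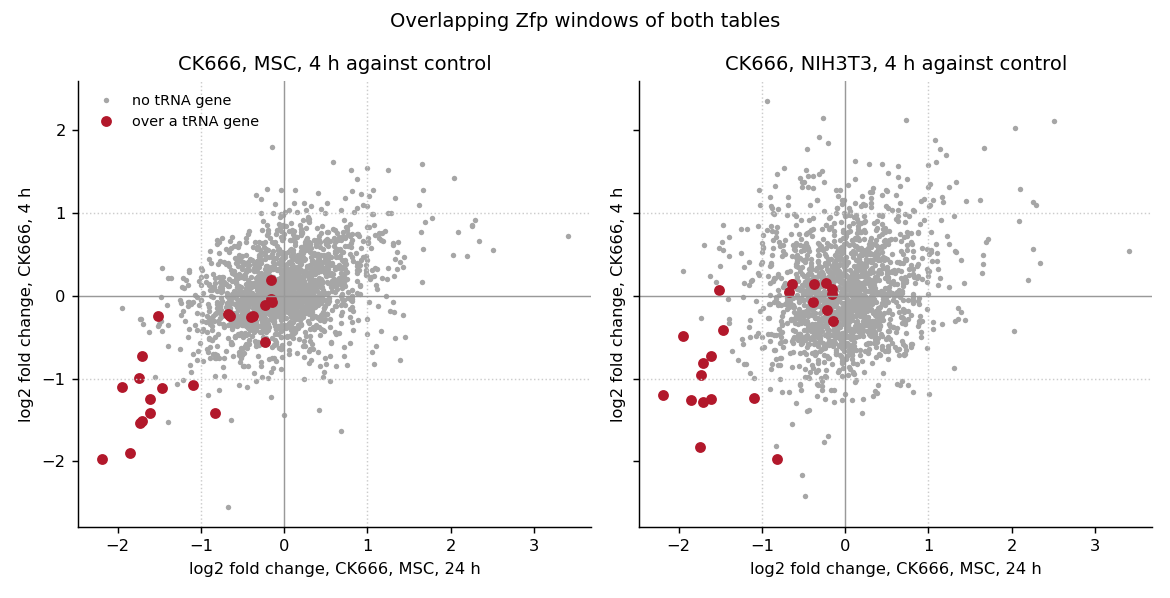
Log2 fold change with CK666 at 24 h in MSCs (x axis) against that at 4 h in MSCs (left, 1860 pairs) and in NIH3T3 cells (right, 1684 pairs) for overlapping Zfp windows; each point is a pair and dotted lines mark log2 changes of 1 and -1. Larger points are windows over a tRNA gene; they reach into the lower left corner, where all 10 pairs lost at both times in MSCs lie, 9 of them over a tRNA gene.

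In the Zfp clusters the share of windows called was below that of all windows in some comparisons and near or above it in others. With CK666 at 24 h 5 of 526 cluster windows were gained and 5 lost (0.951% each), against 26 and 20 of 1546 at single genes (1.68% and 1.29%) and 1.88% and 1.06% of all windows. With CytoD 3 and 4 of the 526 were gained and lost (0.570% and 0.760%), against 18 and 21 of the 1546 (1.16% and 1.36%) and 0.980% and 1.40% of all windows. At 4 h in MSCs 1 of 576 was gained and 5 lost (0.174% and 0.868%), against 13 and 14 of 1475 (0.881% and 0.949%) and 0.590% and 0.427% of all windows. In NIH3T3 cells the split was 12 gained and 4 lost of 582 in clusters (2.06% and 0.687%) and 25 and 28 of 1490 at single genes (1.68% and 1.88%), beside 1.87% and 1.67% of all windows, with median log2 changes of 0.17 in clusters, -0.02 at single genes, 0.04 over all windows and 0.18 at olfactory receptor genes. Relative to all windows the cluster median stayed between 0.13 and 0.14 under each scaling tried. Windows near genes with a KRAB-like stretch had 5 gains and 15 losses of 575 with CK666 at 24 h (0.870% and 2.61%), against 31 and 11 of 1812 near genes without one (1.71% and 0.607%) and 1.88% and 1.06% of all windows. Of the 15 losses 9 were tRNA windows of Zfp184, and without its tRNA windows 6 of 563 were lost, or 1.07%, close to the share of all windows. At 4 h in MSCs they had 1 gain and 14 losses of 615 (0.163% and 2.28%, beside 0.590% and 0.427% of all windows), and without the Zfp184 tRNA windows 4 losses of 600 (0.667%).

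The chromosome 13 cluster from Zfp712 to Zfp273 (chr13:67061170-67813740, 19 genes) had 48 windows tested at 24 h, with 1 gained and 3 lost with CK666 and a median of -0.02, against -0.23 in other windows within 1 Mb of its ends. The gain was at Zfp87. The losses were at Zfp455 (-1.40 ± 0.33), Zfp738 (-1.28 ± 0.30) and Zfp58, where counts went from 146, 146 and 162 to 59.2, 70.5 and 61.1 (-1.25 ± 0.16). With CytoD 0 were gained and 1 lost, the Zfp748 window. In the wider stretch from 65 to 68 Mb of chromosome 13, 53 member windows gave the same calls, 1 gained and 3 lost with CK666 and 0 and 1 with CytoD. At 4 h it had 0 gained and 1 lost of 67 in MSCs and 1 gained and 0 lost of 53 in NIH3T3 cells.

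The cluster from Zfp677 to Zfp946 on chromosome 17 (chr17:21383748-22424222, 18 genes) had the most windows, 120 at 24 h. With CK666 2 were gained and 1 lost. The gains were at Zfp51 (1.10 ± 0.30) and in an intron of Zfp943, where counts went from 5.13, 5.05 and 3.53 to 30.5, 32.7 and 40.8 (2.90 ± 0.52), and the loss was at Zfp229, from 308, 322 and 339.8 to 165, 159.8 and 160.1 (-1.003 ± 0.11). With CytoD the Zfp983 window was gained, and windows at Zfp229 (-1.27) and Zfp760 (-1.52) were lost. In NIH3T3 cells 3 of 117 were gained, at Zfp983 in a coding exon (1.86), Zfp994 (1.62) and Zfp229 (1.21), and the Zfp229 window described above was lost.

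Some cluster medians lay away from 0 without a call. In the cluster from Zfp868 to Zfp866 on chromosome 8 the median with CK666 at 24 h was 0.66, with 18 of 20 windows above 0 and 0 called, against 0.20 in windows within 1 Mb; its mean level per window was 101 to 117 in the controls, 121 to 128 with CK666 and 91.2 to 93.0 with CytoD, and leaving out 1 library at a time gave medians of 0.37, without CK666 replicate 1, to 0.65. In the cluster from Zfp936 to Zfp819 on chromosome 7 the median was -0.36 with CK666, with 3 of 30 windows above 0, and -0.27 with CytoD, against -0.07 and 0.15 around it, at mean levels of 62.0 to 64.1 in the controls, 47.9 to 55.3 with CK666 and 51.2 to 55.0 with CytoD. Leaving out 1 library at a time gave medians of -0.48 to -0.27 with CK666 and -0.29 to -0.07 with CytoD. In the cluster from Zfp84 to Zfp146 on chromosome 7 the median with CK666 in NIH3T3 cells was 0.56 (0.37 to 0.58 with 1 library left out), with 21 of 26 windows above 0, against 0.24 around it. These 3 were picked out after their values were seen, among 9 to 11 clusters per table, and carry no test; in edgeR 6, 5 and 11 of their windows had an unadjusted p under 0.05, and DESeq2 called 0, 0 and 1 gained and 0, 0 and 0 lost. The cluster from Zfp871 to Zfp563 on chromosome 17 had a median of 0.36 with CK666 in NIH3T3 cells, with 16 of 21 windows above 0 and 0 called by edgeR or DESeq2 (4 at an unadjusted p under 0.05 in edgeR), but the windows around it had 0.40. A window at Zfp120, of a cluster on chromosome 2, was lost at 4 h in both cell types, from 61.9, 79.8 and 77.0 to 20.8, 19.4 and 37.2 in MSCs (-1.50 ± 0.26) and from 127, 88.9 and 101 to 35.0, 37.8 and 34.8 in NIH3T3 cells (-1.54 ± 0.22).

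**Figure D5:**
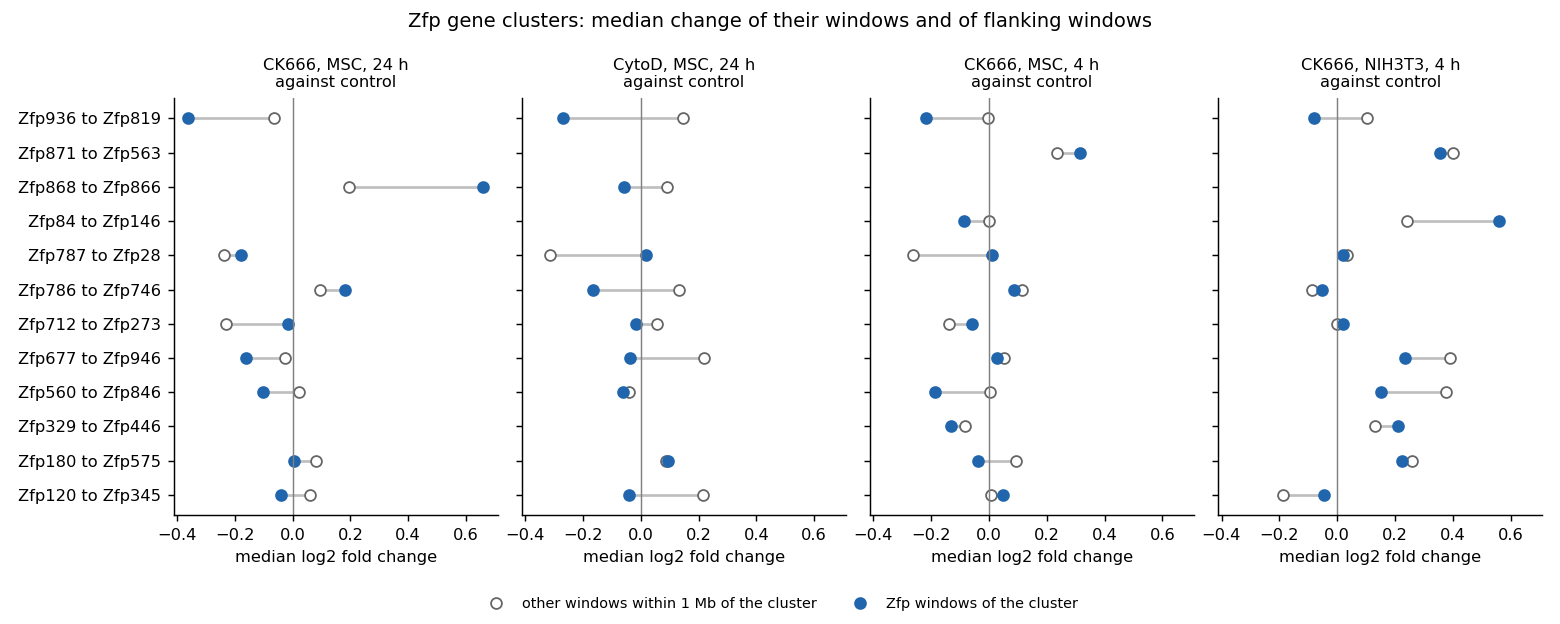
Median log2 fold change of the Zfp windows of each cluster with at least 20 windows tested (filled) and of other non-promoter windows within 1 Mb of the cluster's ends (open), in the 4 comparisons with control; a cluster is missing from a panel where fewer windows were tested. The cluster from Zfp868 to Zfp866 stands out with CK666 at 24 h (0.66 against 0.20).

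Untreated NIH3T3 cells and MSCs differed far more than any treated group did from its control. The cell types can differ also in copy number and in DNA sequence, and so in how reads map, which the counts cannot separate from accessibility. This holds for all windows, genes and clusters compared between them below, and was not tested. Of 2667 member windows, 305 were higher in NIH3T3 cells and 544 lower (11.4% and 20.4%, beside 16.2% and 18.3% of all windows), with a median of -0.18 against 0.02; scaling by total counts gave 396 and 428 and put the median of all windows at 0.25, and the median of the members ran from -0.19 to 0.05 over the settings tried, while relative to all windows it stayed at -0.21. A window in an intron of Zfp932, 314 bp from its TSS at chr5:109996877-109997822, had 93.0, 71.3 and 64.4 counts in NIH3T3 cells and 0 in all MSC controls, at least 76.3-fold higher against a floor of 3 counts over the group. In an intron, 9299 bp upstream of the TSS of Zfp462, at chr4:55001473-55002067, 205, 176 and 225.5 stood against 6.03, 0 and 7.01 (5.50 ± 0.32). A coding-exon window of Zfp644, a partner of the H3 lysine 9 methyltransferase G9a, at chr5:106636280-106636789, had 8.55, 3.44 and 3.79 in NIH3T3 cells and 610.0, 598 and 624 in MSCs (-6.87 ± 0.21). A window of Zfp423, at chr8:87932781-87933311, had 7.48, 6.02 and 5.69 against 689, 669 and 687 (-6.72 ± 0.20).

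Genes with many windows went different ways between the cell types. Of the 9 Zfp genes with at least 50 windows tested, a limit set after the values were seen, 6 had more windows lower than higher in NIH3T3 cells, with 152 lower and 45 higher of 526 windows (28.9% and 8.56%, beside 18.3% and 16.2% of all windows). Zfp608 had 45 of 70 windows lower and 3 higher, Zfp423 33 of 65 lower and 2 higher, and Zfp644 23 of 50 lower and 0 higher. Fewer were lower at Zfp516, with 15 and 2 of 57, Zfp407, with 13 and 4 of 52, and Zfp704, with 10 and 9 of 57. At Zfp827 17 of 70 were higher and 11 lower, at Zfp217 4 of 54 were higher and 2 lower, and at Zfp64 4 of 51 were higher and 0 lower. Below the limit, Zfp521, a regulator of mesenchymal and hematopoietic progenitors, had 11 higher and 1 lower. In the chromosome 13 cluster 22 of 68 windows were lower and 6 higher, with a median of -0.60 against 0.27 around it; its mean level per window was 66.5 to 69.6 in MSC controls and 29.7 to 32.3 in NIH3T3 controls. Of the Zfp184 tRNA windows 3 of 15 were lower in NIH3T3 cells, those of n-TSaga6 (-1.34) and n-TSaga1 (-1.91) among them.

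A list of 30 genes around KRAB co-repression and H3 lysine 9 methylation was looked at in the same way. This list holds Trim28, Setdb1, H3 lysine 9 methyltransferases, HP1 and HUSH genes and DNA methyltransferases. The list also holds the H3 lysine 9 demethylase genes Kdm4a, Kdm4b and Kdm4c, the KRAB zinc finger gene Zfp57 and others such as Daxx, Chaf1a and Chd4. Of its windows that contain a TSS 0 of 49 were called with CK666 or CytoD at 24 h and 0 of 44 at 4 h in MSCs in edgeR (at an unadjusted p under 0.05: 9, 12 and 14; DESeq2 called 0, 0 and 0 gained and 0, 0 and 0 lost), and 1 of 47 in NIH3T3 cells, at Ehmt2 (2.65 ± 0.64). The TSS windows of Trim28 changed by -0.56 to -0.15 with CK666 at 24 h and were not called. Of non-promoter windows near these genes 5 were gained and 1 lost of 366 with CK666 at 24 h (1.37% and 0.273%, beside 1.88% and 1.06% of all windows) and 7 and 7 with CytoD (1.91% each, beside 0.980% and 1.40%). At 4 h there were 3 and 1 of 309 in MSCs (0.971% and 0.324%, beside 0.590% and 0.427%) and 10 and 8 of 319 in NIH3T3 cells (3.13% and 2.51%, beside 1.87% and 1.67%). The windows that follow were picked out after their values were seen and stand for themselves, not for the list. A window near Fam208a, which encodes the HUSH subunit TASOR, was gained with CK666 at 24 h (2.65 ± 0.22) and at 4 h in MSCs (2.42 ± 0.30). One near Atf7ip, whose product binds Setdb1, was gained with CK666 (1.96 ± 0.14) and CytoD (1.22 ± 0.15) at 24 h and in NIH3T3 cells (1.64 ± 0.18).

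At the distance limit, the member window farthest from its TSS in the 24 h table was 49962 bp from that of Zfp423, with changes of 0.37 with CK666 and 0.27 with CytoD, and the nearest window outside the limit was 50188 bp from Zfp746, with 0.50 and -0.03. In the 4 h table these were 49899 bp from Zfp217, with -0.17 in MSCs, and 50004 bp from Zfp800, with -0.25.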

How the data were processed

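ATAC-seq libraries of MSCs and NIH3T3 cells were counted by the authors over consensus windows, and the deposited values are raw read counts per window, 1 table for 24 h and 1 for 4 h, on mm10. The authors processed reads with PEPATAC, bowtie2 and MACS2; the filter for reads with several possible positions was not given in the sources used here. Member windows were chosen by nearest TSS with GENCODE vM21. The members and lists were chosen with earlier results of these data known, and the overlap with RefSeq tRNA genes was added after seeing the data. Some member windows near Zfp184 and the sequences of tRNA genes are not reported here singly, but are counted in all totals. Counts were tested with edgeR 4.0.16 (TMM, quasi-likelihood) in R 4.3.3 over all windows that passed its expression filter, with Benjamini-Hochberg adjustment; calls required a log2 change larger than 1 in size with an adjusted p below 0.01. The test was two-sided. It was tested on simulated data. DESeq2 1.42.0, other scalings, limits and left-out libraries were alternatives. Normalized counts are TMM-scaled within a fit and compare only within it; values in the joint 4 h fit, used for NIH3T3 against MSCs and the interaction, differ from those of the separate fits.

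Windows are named by a rule: up to 5 called windows with the largest gain and 5 with the largest loss per comparison with control, and 2 each way in the other comparisons. Their mean had to reach 20 normalized counts. The groups had to be fully separate, except for the interaction, where this was not required. Genes with at least 3 called windows in a comparison with control and clusters with at least 20 tested windows are named too; other windows, gene counts between cell types and the co-repressor windows were named after their values were seen. KRAB-like stretches were found by a sequence pattern in translated annotation and diverged boxes may be missed. Counting error alone sets a floor of 3 counts for a group at 0.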

Additional observations from a re-analysis of the deposited data

Results flagged for a closer look

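The response to CK666 at 4 h differed between NIH3T3 cells and MSCs by the interaction term of edgeR at 4 windows that met the naming rule. For the interaction that rule did not require separate groups. In a coding exon of Zfp983, at chr17:21661923-21662496, NIH3T3 cells had 41.0, 40.2 and 29.7 normalized counts with CK666 and 12.8, 10.3 and 7.58 without, while MSCs had 7.57, 16.7 and 16.0 with it and 18.1, 22.8 and 32.0 without, a difference in log2 change of 2.68 ± 0.56 (adjusted p = 0.000873).

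In an intron of Zfp398, at chr6:47839273-47839909, NIH3T3 cells had 7.60, 14.1 and 15.9 with CK666 and 4.28, 0.86 and 3.79 without, and MSCs 48.2, 47.6 and 36.5 with it and 53.3, 73.3 and 61.1 without (2.63 ± 0.60, adjusted p = 0.00299). Upstream of Zfp831, at chr2:174599637-174600185, NIH3T3 cells had 15.2, 23.9 and 20.8 with CK666 and 67.3, 57.6 and 68.2 without, and MSCs 9.46, 18.4 and 10.7 with it and 8.04, 5.95 and 11.01 without (-2.29 ± 0.54, adjusted p = 0.00396).

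Downstream of Zfp825, at chr13:74456944-74457543, NIH3T3 cells had 82.1, 125 and 85.2 with CK666 and 503, 345 and 497 without, and MSCs 21.8, 23.4 and 21.4 with it and 15.1, 28.7 and 26.0 without (-2.12 ± 0.33, adjusted p = 6.63e-06). All MSC libraries were below all NIH3T3 libraries there. The MSC groups overlapped at Zfp831 and Zfp825, and the NIH3T3 controls at Zfp398 had few counts. Why the responses differ was not tested.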

How the results depend on the processing

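Counts of member windows gained and lost are given in that order. With an adjusted p under 0.05 and no limit on the fold change there were 101 and 127 with CK666 at 24 h, 82 and 135 with CytoD, 134 and 119 for CK666 against CytoD, 94 and 93 with CK666 at 4 h in MSCs, 132 and 188 in NIH3T3 cells, 56 and 75 for the interaction and 484 and 864 between untreated cell types. With the TSS limit at 10 kb these were 14 and 6, 5 and 10, 16 and 11, 9 and 10, 29 and 12, a lost count of 9 for the interaction, and 128 and 258. Without windows over tRNA genes the losses were 16 with CK666 at 24 h and 10 at 4 h in MSCs. DESeq2 called 9 gains with CK666 at 4 h in MSCs and 26 in NIH3T3 cells. Scaling by total counts gave 23 gains for the interaction. The causes were not tested, other than the smaller number of windows under the shorter limit and without tRNA genes.

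Leaving out 1 library at a time gave 23 to 37 and 18 to 28 with CK666 at 24 h, 17 to 25 and 22 to 29 with CytoD, 25 to 41 and 18 to 32 for CK666 against CytoD, 10 to 15 and 15 to 23 at 4 h in MSCs, 28 to 39 and 32 to 57 in NIH3T3 cells, 8 to 16 and 19 to 33 for the interaction, and 258 to 319 and 490 to 544 between cell types. Counts moved by over 1.5 times without MSC CK666 24 h replicate 1 (23 gains), without MSC control 24 h replicate 3 (17 CytoD gains), without MSC CytoD 24 h replicate 3 (18 windows lower with CK666 than with CytoD), without replicate 1 of either 4 h MSC group (10 gains), without replicate 3 of either (11 gains), without replicate 1 or 3 of the NIH3T3 controls (28 gains), and, for the interaction, without replicate 3 of MSC CK666, replicate 1 of MSC control or replicate 3 of NIH3T3 CK666 (8 gains).

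With the replicate block the counts were 39 and 26, 26 and 26, 34 and 34, 17 and 22, 43 and 42, 12 and 22, and 293 and 530. Correlations of deviations ran from -0.071 to 0.027 between libraries with the same number and from -0.051 to 0.054 between others. Low counts also bring such correlations near 0, so they cannot tell whether the numbers pair the samples. The tRNA windows of Zfp184 had 6 to 9 losses with CK666 at 24 h over the alternatives, 5 to 6 with CytoD, 9 to 11 at 4 h in MSCs and 3 to 6 in NIH3T3 cells, and 0 gains. Of 820 alternative values of the 52 named windows, 798 kept direction and call, 22 kept the direction but lost the call, at 9 windows, and 0 reversed. Low counts limit the rest: the median member window held 20.6 normalized counts in the 24 h controls.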
